A study of Mus musculus with 9 samples.

Results

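The complement genes examined here are C1ra, C4b, C3, Cfb, Serping1, Cd55 and Cd59a, 7 genes chosen by symbol from the 40548 genes of the deposited tables. They were followed through osteoblast differentiation in primary calvarial cells, the bone-forming progenitors that enzymes release from the skull of newborn mice. The cells came from C57BL/6 pups at postnatal day 2 to 3, as the labels give it. The study's methods name the substrain C57BL/6J, pups of both sexes, and wild-type or ColI-GFP animals, the latter with a green fluorescent reporter under a Col1a1 promoter, and the labels do not say which of these gave the libraries. Total RNA depleted of ribosomal RNA was sequenced from 3 libraries of confluent cells before differentiation (day 0), 3 libraries after 4 days (day 4) and 3 libraries after 7 days (day 7) in mineralization medium, to which β-glycerol phosphate and ascorbic acid had been added. The digest was not sorted, so the cultures could hold any adherent cell type of the calvarium. Mineralized cells were freed with collagenase before trypsin and non-mineralized cells with trypsin alone, so stage and release from the dish cannot be told apart.

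Complement is a cascade of plasma proteins, most of them made by the liver, that tags and lyses targets. In the classical pathway C1q binds a target and activates the proteases C1r and C1s, which cut C4 and C2, whereas the lectin pathway starts with mannose-binding lectin, ficolins or collectins and the MASP proteases. Both, and the alternative pathway with factors B and D, meet at C3, and the terminal components C5 to C9 form the lytic pore. Host cells hold the cascade in check with C1 inhibitor (encoded by Serping1) and membrane proteins such as CD55 and CD59, and mesenchymal cells are a known local source of several components.

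The reads counted on genes numbered from 7741204 to 14013219 per library at day 0, from 32820610 to 37306090 at day 4 and from 10675858 to 15622755 at day 7. Day 4 lies in tables of its own and was sequenced more deeply, so values at day 4 were compared by level and overlap and entered no test. Of 6 osteoblast markers, 5 rose from day 0 to day 7 and the other was Runx2 (log2 fold change 0.23), and of the stromal genes Pdgfra and Pdgfrb fell (log2 fold changes of −0.84 and −1.27), Col3a1 rose (0.82) and Dcn was not called (0.01). Hepatocytes, the main source of plasma complement, left little trace. Their markers Ttr and Serpina1a were listed at 0 in all 9 libraries and Alb had at most 4 reads, while Apoa2 had 1 to 8 reads at day 0 and 4 to 7 at day 7. The 9 macrophage markers were all higher at day 7 than at day 0 by limma, a linear model across all genes described in the next paragraph, with summed levels of 46.1 to 78.3 RPKM at day 0, 90.0 to 100.7 at day 4 and 87.1 to 116 at day 7. Lyz2 alone made up between 73.9% and 81.7% of these sums, and without it they were 8.97 to 14.4, 20.1 to 26.3 and 20.8 to 26.9 RPKM. RPKM are reads scaled to the length of the gene model and the total of the library, so that genes of unequal length can be compared. In bulk RNA, fewer cells of a type and less RNA per cell cannot be told apart.

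Of the 7 genes, the regulators Serping1 and Cd59a rose from day 0 to day 7, whereas the initiating protease C1ra stayed within its spread at every stage. Day 7 was tested against day 0 with limma on log2(CPM + 0.5), where CPM are reads scaled to the total of the library only, in the 12712 genes with a mean of at least 1 CPM over the 6 libraries, with 0.05 as the threshold of the p adjusted by Benjamini and Hochberg. Differences on this scale understate the change of low genes. Of the 7 genes, 5 passed the filter on low values, and Serping1 and Cd59a were higher at day 7 and 0 were lower, while C1ra, Cd55 and C3 did not pass the threshold. Without adjustment (p under 0.05) these counts were also 2 and 0, and the share of all genes without adjustment was not computed. The counts were 2 and 0 with edgeR and with DESeq2 as well. Of all genes, 22.2% were higher and 20.8% lower with edgeR, and 20.3% and 18.3% with DESeq2. Among all genes tested with limma, 31.2% were called, 12.6% as higher and 18.6% as lower. These were 1602 and 2369 genes, against 2843 and 2612 after median-of-ratios scaling. All genes tested had a median log2 fold change of −0.11, and this scaling moved it to −0.01. C4b and Cfb lay below the filter.

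Stages were also compared by whether all libraries of one lay above all of the other. From day 0 to day 4, Serping1, Cd59a and C3 were higher in this sense and C4b was lower, against 16.7% and 13.2% of the genes with any reads and 21.4% and 22% of those with a mean of at least 1 CPM. From day 4 to day 7, 0 of the 7 were higher and 2, Serping1 and C3, were lower, against 8.5% and 17.7% of genes with any reads and 13.7% and 25% of those over 1 CPM. From day 0 to day 7, Serping1 and Cd59a were higher and C4b was lower, against 12.3% and 16.1% of genes with any reads and 16.9% and 25.4% of those over 1 CPM.

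The order of the levels changed between stages. C1ra led at day 0 with 11.3 ± 1.75 RPKM (SD, n = 3), followed by Serping1, Cd59a and Cd55, each separated from the next in all libraries, and then by C4b and C3, whose libraries overlapped. At day 4 the deposited RPKM of Serping1 stood above that of C1ra in every library, by 12.2 against 11.9 in replicate 1, and C3 reached the range of Cd55. C1ra lacks the reads it shares with a paralog, so this order holds for uniquely aligned reads only. At day 7 the ranges of C1ra and Serping1 overlapped, though C1ra stood above Serping1 within each library (ratios of Serping1 to C1ra of 0.971, 0.875 and 0.566). Cd59a followed, and C3 stood below Cd55 and above C4b. C1ra and Serping1 together made up between 81.7% and 86.4% of the summed RPKM of the 7 genes in each library. The share of C1ra went from between 66.4% and 71.8% at day 0 to between 38.4% and 41.8% at day 4 and between 42.3% and 53.5% at day 7.

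C1ra encodes the mouse C1r protease, which activates C1s within the C1 complex. C1ra (ENSMUSG00000055172) is a protein-coding gene on the forward strand of GRCm38 at chr6:124512405-124523443. It had 11.1, 13.2 and 9.67 RPKM at day 0, 11.9, 11.1 and 11.6 at day 4, and 10.7, 9.15 and 11.3 at day 7. The 3 stages overlapped throughout, and the spread within day 0 was wider than the distance between the stage means. The log2 fold change from day 0 to day 7 was −0.11 (95% interval −0.46 to 0.23, limma adjusted p = 0.654), which equals the median of all genes to 2 decimals. The level itself is uncertain, since its paralog C1rb holds 48.0% of the 50-base stretches of its transcripts, and only uniquely aligned reads were counted. C1rb was listed at 0 in all 9 libraries. C1s1, the gene of the protease that C1r cuts, averaged 4.39 ± 0.600 RPKM before differentiation, 6.03 ± 0.453 on day 4 and 5.04 ± 0.198 on day 7 (SD, n = 3). Its log2 fold change was 0.20 (limma, adjusted p = 0.436), and it was 0.31 and passed the threshold after median-of-ratios scaling. Of its exonic bases, 18.4% lie under the antisense gene Gm16567, whose reads cannot be told apart without strand. The ratio of C1ra to C1s1 within a library does not depend on such scaling, and it was 2.49 to 2.62 at day 0, 1.81 to 2.09 at day 4 and 1.85 to 2.31 at day 7. All day 0 ratios lay above all later ones (day 7 against day 0, two-sided exact permutation p = 0.1, the lowest that 3 libraries against 3 allow). The ratio was chosen after its values were seen, so this p is a description only.

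The start of C1ra is shown as that of the abundant protease gene whose stages overlapped. RefSeq promoters, which span 250 bases before a start site and 50 from it on, were matched for 4 of the 7 genes, namely C1ra, C3, Cd55 and Cd59a. They were searched on both strands for the letters of 4 sites of factors known to act on complement genes in inflammation, namely GGG and TTTCC set 2 bases apart for NF-kB, TTCNNNGAA for GAS, a pair of GAAA runs 2 bases apart for ISRE and TTGCNNAA for C/EBP. Of all 32851 promoters of this length, 1.63%, 8.30%, 3.44% and 10.8% held them. In the sequence of C1ra (GRCm38.p6, forward strand, chr6:124512371-124512670) capitals mark a C/EBP match on the other strand at bases 267 to 274 and a GAS match at bases 283 to 291, both past the start site, which RefSeq places 216 bases inside the gene as GENCODE gives it, so that most of this window lies within the gene.
C1ra: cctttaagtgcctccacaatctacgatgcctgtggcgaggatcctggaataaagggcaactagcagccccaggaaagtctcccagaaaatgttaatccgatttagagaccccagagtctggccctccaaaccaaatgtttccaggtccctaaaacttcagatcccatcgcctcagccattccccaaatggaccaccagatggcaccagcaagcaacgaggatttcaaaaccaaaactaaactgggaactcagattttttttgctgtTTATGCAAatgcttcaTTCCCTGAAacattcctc
A match is only a run of letters, and binding was not measured.

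C4b encodes complement C4, which C1s and MASP2 cut to form the classical C3 convertase. C4b (ENSMUSG00000073418) lies on the reverse strand of GRCm38 at chr17:34728380-34743882. Few reads fell on it, namely 15, 12 and 7 at day 0, 21, 10 and 8 at day 4 despite its greater depth, and 4, 4 and 2 at day 7. The levels were 0.188, 0.176 and 0.159 RPKM at day 0, 0.112, 0.0470 and 0.0390 at day 4, and 0.0514, 0.0658 and 0.0225 at day 7. Every library of the later stages was lower than every day 0 library, while day 4 and day 7 overlapped. In a fit of all 23787 genes with any reads, chosen after the values were seen, C4b fell from day 0 to day 7 by 0.98 on the log2(CPM + 0.5) scale (standard error 0.22, limma adjusted p = 0.00253), where 17.1% of genes were called, 7.63% higher and 9.45% lower. It did not pass with DESeq2 in these genes (adjusted p = 0.0527), and over the alternatives its adjusted p ranged from 0.00142 to 0.0527. Of its stretches of 50 bases, 34.6% also lie in the paralog C4a. C4a had 9, 7 and 6 reads at day 0, 25, 53 and 41 at day 4 and 12, 4 and 19 at day 7. The libraries of C4a overlapped between day 0 and day 7, with means of 0.108 ± 0.0157 and 0.133 ± 0.0682 RPKM (SD, n = 3).

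C3 is the component at which all pathways meet, and its fragments mark targets and attract leukocytes. C3 (ENSMUSG00000024164) lies on the reverse strand of GRCm38 at chr17:57203970-57228136, and 0 of the 50-base stretches in its transcripts occur in another gene. Its level was low at day 0, at 0.0555, 0.325 and 0.0753 RPKM from 4, 20 and 3 reads. At day 4 it was 0.503, 1.77 and 0.933 RPKM from 85, 339 and 173 reads. At day 7 it was 0.342, 0.218 and 0.174 RPKM from 24, 12 and 14 reads. Each day 4 library stood above each day 0 and each day 7 library. The mean at day 4 was 7.02-fold that at day 0, yet the day 4 libraries themselves spread from 0.503 to 1.77 RPKM. Day 0 replicate 2 held 20 of the 27 reads of its stage, and without it the mean at day 4 was 16.3-fold that at day 0, against 4.72-fold without day 4 replicate 2. Between day 0 and day 7, where the libraries overlapped, the log2 fold change was 0.59 (95% interval −0.05 to 1.22, limma adjusted p = 0.161). Its mean of 1.02 CPM over these 6 libraries was just above the filter, and it fell below it without day 0 replicate 2, the highest of day 0, and without day 7 replicate 1 or 2. In its promoter (GRCm38.p6, reverse strand, chr17:57228087-57228386), shown for this peak, capitals mark a C/EBP match at bases 206 to 213, before the start site.
C3: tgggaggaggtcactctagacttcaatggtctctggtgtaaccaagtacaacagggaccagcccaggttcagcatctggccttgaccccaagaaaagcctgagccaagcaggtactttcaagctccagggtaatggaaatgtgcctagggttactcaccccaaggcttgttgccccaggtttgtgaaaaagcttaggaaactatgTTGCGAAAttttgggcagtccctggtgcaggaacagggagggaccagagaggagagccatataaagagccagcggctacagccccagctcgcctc
No match to the letters of the other 3 sites was found in this window.

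Macrophages also make C3, so the markers of these cells were set beside it. Day 0 replicate 2, with the most C3 at its stage, also had the highest summed macrophage markers of day 0, at 78.3 RPKM against 46.1 and 51.6. Day 4 replicate 2, with the most C3 of all, had a sum of 100.7 RPKM, against 96.4 in replicate 1 and 90.0 in replicate 3. Of the latter, replicate 1 had the higher sum but less C3 (0.503 against 0.933 RPKM). At day 7, replicates 1, 2 and 3 had 0.342, 0.218 and 0.174 RPKM of C3. Their sums were 116, 87.1 and 105.7 RPKM, so C3 and the sum did not keep the same order within these 2 later stages. The ratio of C3 to the macrophage marker Adgre1 was 0.0701 to 0.154 at day 0, 0.236 to 0.652 at day 4 and 0.0818 to 0.128 at day 7. With each of the 9 markers in turn as the denominator, the ratio was higher at day 4 than at day 0 in all libraries for 5 markers and overlapped for the other 4, Cd14, Fcer1g, Ptprc and Tyrobp. From day 4 to day 7 it was lower in all libraries for 9 of 9. The part of macrophages in the level of C3 was not tested at any stage.

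Cfb encodes factor B, the protease component of the alternative C3 convertase. Cfb (ENSMUSG00000090231) lies on the reverse strand of GRCm38 at chr17:34856374-34862518. Only 6 reads were counted on it in all, namely 0, 2 and 0 at day 0, 1, 1 and 0 at day 4, and 1, 1 and 0 at day 7. No library exceeded the floor of 3 reads, which corresponds to 0.0284 to 0.137 RPKM depending on depth and covers counting error only, so no fold change is given. These counts do not show that the gene is silent. In GENCODE M21, 79.5% of its exonic bases also belong to Gm20547, a gene on the same strand that joins exons of C2 and Cfb, and reads that fit both genes were not counted as unambiguous. Gm20547 was listed at 0 in all 9 libraries. C2, the protease that pairs with C4, shares 42.8% of its exonic bases with Gm20547. It had 9, 5 and 1 reads at day 0, 40, 69 and 43 at day 4 and 19, 16 and 28 at day 7. Its mean level was 0.102 ± 0.0664 RPKM before differentiation and 0.403 ± 0.0535 on day 7 (SD, n = 3), and in the fit of all genes with any reads its log2 fold change was 1.24 (limma adjusted p = 0.00129).

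Serping1 encodes C1 inhibitor, a serpin whose targets include C1r, C1s and MASP proteases. It showed the largest rise of the 5 genes tested between day 0 and day 7. Serping1 (ENSMUSG00000023224) lies on the reverse strand of GRCm38 at chr2:84765387-84775444, and it shares 0 of its 50-base stretches with other genes. It had 2.76, 2.52 and 2.28 RPKM at day 0, 12.2, 13.2 and 14.1 at day 4, and 10.4, 8.01 and 6.41 at day 7. All day 4 libraries were above all day 7 libraries, and all day 7 libraries above all day 0 libraries. The mean at day 4 was 5.22-fold and that at day 7 3.28-fold the mean at day 0. The log2 fold change from day 0 to day 7 was 1.61 (standard error 0.20, limma adjusted p = 3.91e-09), and it ranged from 1.44 to 1.78 when single libraries were left out.

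Inhibitor and target protease were compared within each library, which removes the scaling between libraries and tables. The ratio of Serping1 to C1ra in RPKM was 0.225 ± 0.0301 before differentiation, 1.14 ± 0.104 on day 4 and 0.804 ± 0.212 on day 7 (SD, n = 3). Its lowest value at day 7, 0.566, was above its highest at day 0, 0.249 (two-sided exact permutation p = 0.1, again the lowest possible). Serping1 alone already separated these stages while C1ra changed little, and the ratio was chosen after its values were seen. This p therefore adds no support. Over the sum of C1ra, C1s1 and Masp1, 3 genes that each encode a protease that C1 inhibitor blocks, the ratio was 0.0814 to 0.106 at day 0, 0.364 to 0.497 at day 4 and 0.237 to 0.401 at day 7. These are levels of whole genes, and different products of a gene such as Masp1 were not told apart. The day 4 ratios did not overlap those of day 0 with either denominator.

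**Figure D1:**
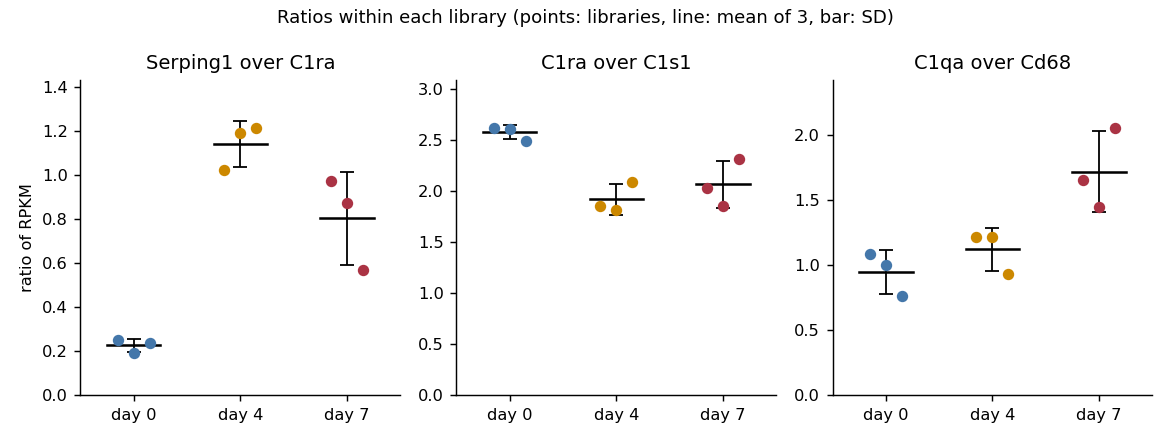
Each panel plots a ratio of RPKM values within a library against the stage, with a point per library, a line at the mean of 3 libraries and a bar of ±1 SD. Serping1 over C1ra lies between 0.191 and 0.249 at day 0 and between 1.02 and 1.22 at day 4, C1ra over C1s1 stays at or below 2.31 at both later stages, and C1qa over Cd68 is highest at day 7.

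Cd59a and Cd55 protect the cell surface at different steps, since CD59 blocks the assembly of the lytic pore and CD55 speeds the decay of the C3 convertases. Cd59a (ENSMUSG00000032679) lies on the forward strand of GRCm38 at chr2:104095801-104115354 and shares 3.87% of its 50-base stretches with its paralog Cd59b. It had 1.81, 1.29 and 0.927 RPKM at day 0, 2.69, 2.17 and 2.68 at day 4, and 2.95, 3.00 and 2.65 at day 7. Both later stages lay above day 0 in all libraries and overlapped each other. The log2 fold change to day 7 was 0.99 (standard error 0.24, limma adjusted p = 8.28e-04), a rise of the mean RPKM by 2.13-fold. Cd59b was far lower, with 1 to 3 reads at day 0 and 3 to 12 at day 7. In the Cd59a promoter (GRCm38.p6, forward strand, chr2:104095551-104095850), shown as that of a surface regulator that rose, capitals mark an ISRE match at bases 64 to 73.
Cd59a: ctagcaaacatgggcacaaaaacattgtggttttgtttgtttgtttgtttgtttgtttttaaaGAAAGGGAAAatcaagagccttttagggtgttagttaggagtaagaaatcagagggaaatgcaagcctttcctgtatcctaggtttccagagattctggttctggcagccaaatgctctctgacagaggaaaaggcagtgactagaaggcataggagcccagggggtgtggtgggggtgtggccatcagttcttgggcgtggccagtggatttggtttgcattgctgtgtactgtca
The promoter of Cd55 held none of the 4 runs of letters, and a window without a match says nothing about a factor.

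Cd55 (ENSMUSG00000026399), on the reverse strand of GRCm38 at chr1:130439027-130462744, was not called. It had 0.808, 0.792 and 0.718 RPKM at day 0, 1.06, 0.569 and 0.834 at day 4, and 0.860, 0.540 and 0.567 at day 7. All stages overlapped, with the widest spread at day 4. Its log2 fold change to day 7 was −0.23 (95% interval −0.70 to 0.24, limma adjusted p = 0.488). Its paralog Cd55b was listed at 0 in all 9 libraries, although part of the sequence of Cd55 also lies there.

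The rest of the cascade was described with 47 other complement genes, all found in the tables. Of these, 18 passed the filter on low values, 7 were higher and 1 was lower at day 7 than at day 0, and 10 did not pass the threshold. Among all genes tested, 12.6% were higher and 18.6% were lower. Without adjustment, 9 had a p under 0.05 in either direction, and the share of all genes at that threshold was not computed. The median log2 fold change of the 18 was 0.46 and that of all genes tested was −0.11. The number of higher genes was 11 after median-of-ratios scaling and 4 without day 7 replicate 1, when Colec12, Itgam and Cd93 did not pass. Of all genes tested, 22.4% were higher after that scaling and 9.07% without that library. Cd93 was also lost without day 0 replicate 1, and Itgam and Cd93 were lost in the fit of all genes with any reads (limma, adjusted p = 0.0556 and 0.0691). The number of higher genes in that fit was still 7, since others such as C2 entered it, against 7.63% of all genes.

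**Figure D2:**
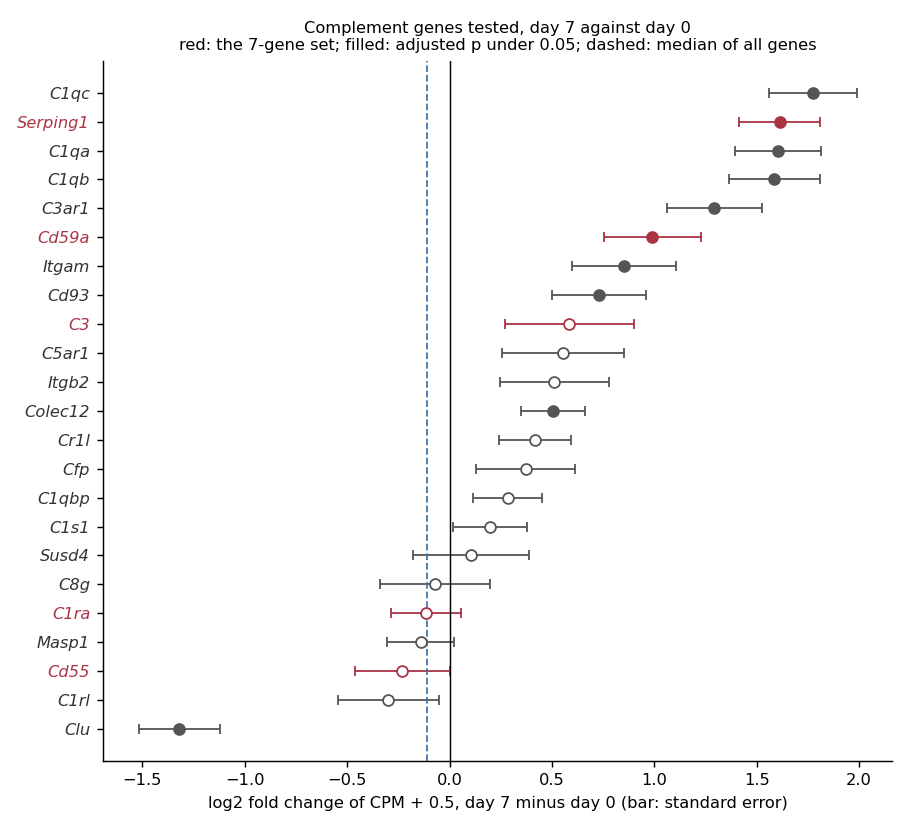
The log2 fold change of CPM + 0.5 from day 0 to day 7 (horizontal axis) is drawn for the 23 complement genes tested, with bars of 1 standard error, red for the genes of the set of 7, filled points for an adjusted p under 0.05 and a dashed line at the median of all genes, −0.11. C1qc is farthest to the right at 1.77, Serping1 stands at 1.61, and Clu is the filled point to the left, at −1.32.

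Among the other regulators, Clu fell. Clu encodes clusterin, a chaperone that also binds terminal complement. It had 8.24, 7.34 and 6.20 RPKM at day 0, 7.21, 4.05 and 4.18 at day 4, and 3.77, 1.88 and 3.09 at day 7, and its log2 fold change was −1.32 (limma, adjusted p = 5.08e-07). Cr1l, the gene of the membrane regulator Crry of rodents, was the most abundant regulator, with 19.9 ± 5.34 RPKM before differentiation and 26.0 ± 1.93 on day 7 (SD, n = 3). Its log2 fold change was 0.42 (limma, adjusted p = 0.0645), and it passed the threshold in 7 of 19 alternatives, among them median-of-ratios scaling (0.53).

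C1qa, C1qb and C1qc, which encode the chains of C1q and are typical of macrophages, were higher at each later stage. C1qa had 3.57, 4.58 and 2.73 RPKM at day 0, 6.38, 8.17 and 6.32 at day 4, and 12.7, 9.90 and 13.0 at day 7. No libraries of different stages overlapped for any of the 3 genes. The log2 fold changes from day 0 to day 7 were 1.60, 1.59 and 1.77 (limma adjusted p = 2.55e-08, 1.21e-07 and 2.29e-09). All 9 macrophage markers rose as well, with a median log2 fold change of 0.98, and their levels at day 4 and day 7 overlapped for 8 of the 9. The ratio of C1qa to Cd68 was 0.760 to 1.08 at day 0, 0.930 to 1.22 at day 4 and 1.45 to 2.06 at day 7. The ratio at day 7 lay above that at day 0 in every library for 5 of the 9 markers (Cd14, Cd68, Csf1r, Lyz2 and Tyrobp) and overlapped for Adgre1, Fcer1g, Mrc1 and Ptprc. Over Fcer1g it was 3.37 to 5.71 at day 0 and 4.03 to 4.92 at day 7. The part of macrophages in the rise of C1q was not tested beyond these values.

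**Figure D3:**
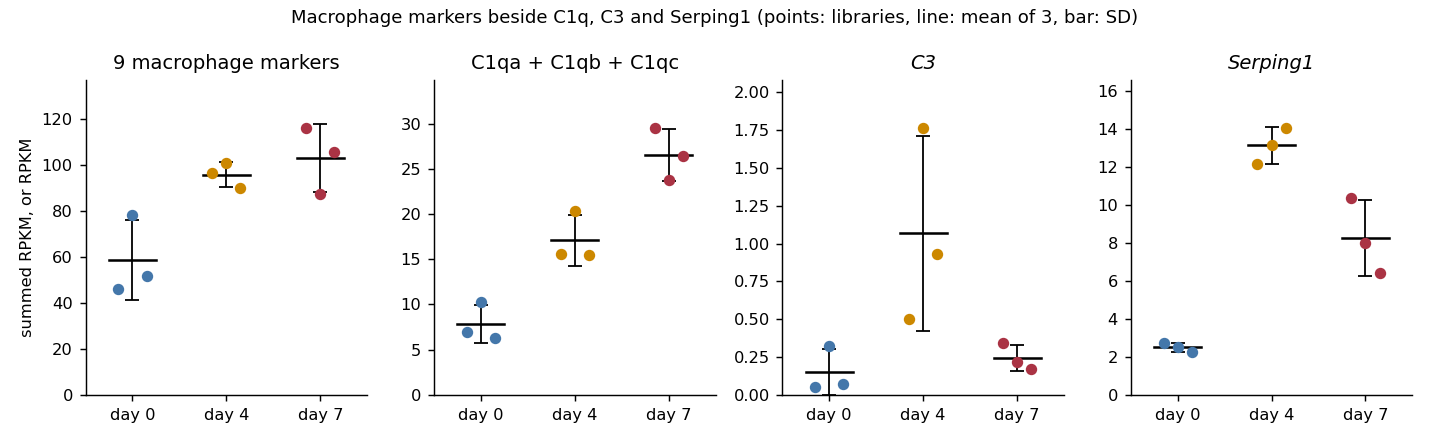
The summed RPKM of 9 macrophage markers, the summed RPKM of C1qa, C1qb and C1qc, and the RPKM of C3 and Serping1 are plotted against the stage, with a point per library, a line at the mean of 3 libraries and a bar of ±1 SD. The marker sum, most of it Lyz2, overlaps between day 4 (90.0 to 100.7) and day 7 (87.1 to 116), whereas the C1q sum is higher at day 7 (23.8 to 29.5) than at day 4 (15.4 to 20.3), and C3 and Serping1 are higher at day 4.

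Of the genes listed for the lectin pathway, Colec12 and Masp1 were the most abundant. Colec12 is a scavenger receptor listed for its collectin family, and whether it starts the pathway here was not tested. Of all complement genes listed it was the most abundant, with 61.7 ± 9.14 RPKM before differentiation, 95.9 ± 5.51 on day 4 and 87.2 ± 8.70 on day 7 (SD, n = 3). Its log2 fold change was 0.51 (limma, adjusted p = 0.0106). Masp1, a protease gene of this pathway, had 11.9 ± 1.02, 12.8 ± 3.08 and 10.7 ± 0.715 RPKM in the order of the stages (SD, n = 3), and its log2 fold change was −0.14 (limma, adjusted p = 0.558). Mbl1 was listed at 0 in all 9 libraries and Mbl2 had 1 read in 1 library, while the ficolin Fcna had 1 to 14 reads and the collectin Colec10 2 to 25. In the alternative pathway, Cfd, also known as adipsin, had at most 1 read in a library, as did the adipocyte marker Adipoq, whereas Fabp4, also listed for adipocytes, had 1.22 to 3.15 RPKM at day 0 and 0.460 to 0.603 at day 7. Cfp (properdin) had 1.04 to 1.59 RPKM at day 0 and 1.67 to 2.19 at day 7 (log2 fold change 0.37, limma, adjusted p = 0.253). Of the 7 terminal components, C6, C8b and C9 were at 0 in all libraries and C7 and C8a had at most 1 read. Hc, the gene of C5, had at most 6 reads in a library at day 0, 2 at day 4 and 4 at day 7. C8g, with 0.914 ± 0.214 RPKM on day 7 (SD, n = 3), was the only one tested, with a log2 fold change of −0.07 that turned positive with other scalings (0.00 after median-of-ratios scaling).

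The receptors were led by C1qbp, a mainly mitochondrial protein that binds C1q, with 9.40 ± 1.46 RPKM before differentiation and 11.4 ± 0.787 on day 7 (SD, n = 3), and its log2 fold change was 0.28 (limma, adjusted p = 0.207). C1qbp passed the threshold in 5 of 19 alternatives. Among the leukocyte receptors, C3ar1, the receptor of the C3a fragment, rose by 1.29 on the log2 scale (limma, adjusted p = 1.46e-05), from 0.630, 0.408 and 0.450 RPKM at day 0 to 1.60, 1.15 and 1.38 at day 7. Itgam, a chain of complement receptor 3 and a marker of myeloid cells, rose by 0.85 on the log2 scale and Cd93 by 0.73 (limma adjusted p = 0.00790 and 0.0122). C5ar1 and Itgb2, with log2 fold changes of 0.56 and 0.51, were not called, and each passed the threshold in 1 of 18 alternatives. The macrophage markers given above rose alongside C3ar1, Itgam and Cd93, and their part in these genes was not tested.

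**Figure D4:**
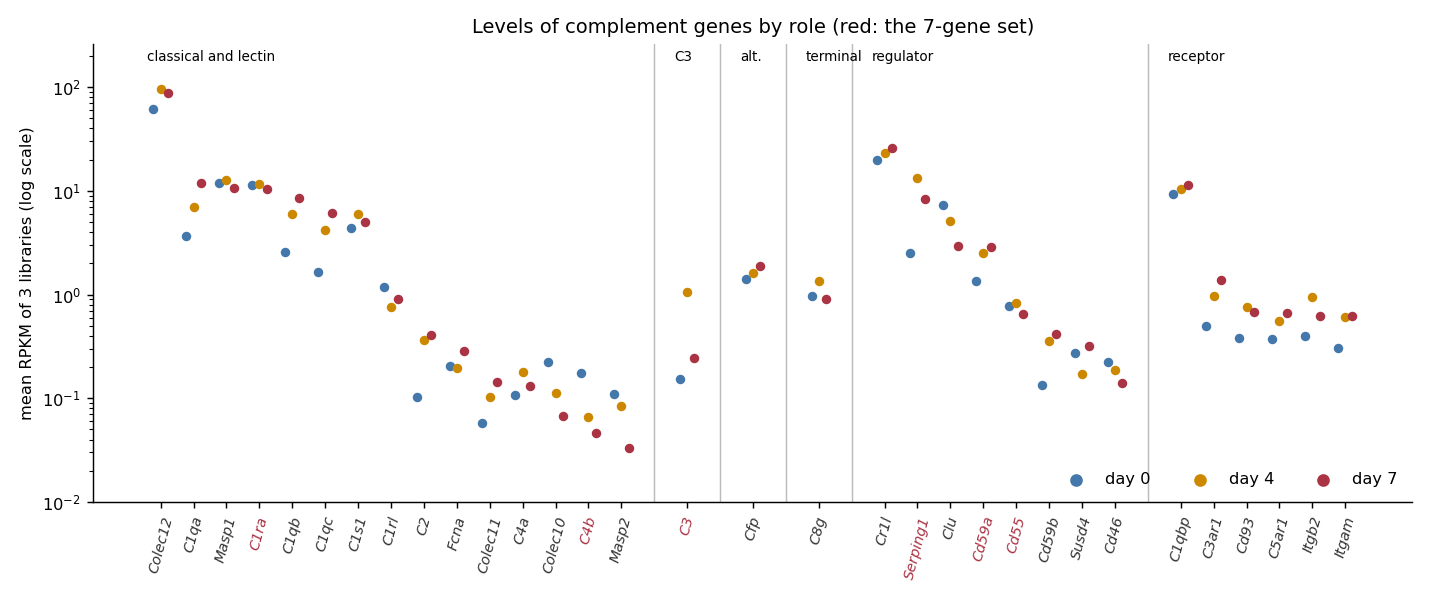
The mean RPKM of 3 libraries (vertical log axis) is drawn at each stage for the 32 complement genes with a mean of at least 0.1 RPKM at some stage and more than 3 reads in some library, grouped by role, with the set of 7 in red. Colec12 is at the top near 90 RPKM at the later stages, C1ra and Masp1 lie near 11, Serping1 is higher after day 0, and C8g is the single terminal component.

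For each gene, those with the most alike pattern over the 9 libraries were sought among 11528 genes with a mean of at least 1 RPKM, by Pearson's r of log2(RPKM + 0.1). The libraries share depth and stage, and r is given as a description. Even Cfb, with 6 reads in all, reached an r of 0.919 (Gm3531), so a value of this size can be met with hardly any reads. Serping1 was closest to 3632451O06Rik (r = 0.998), Tnik (0.996) and Rgs16 (0.994). Rgs16, a regulator of G protein signalling, averaged 1.27 RPKM before differentiation and 33.9 on day 4, a wider range than that of Serping1. C3 was closest to Dennd4a (r = 0.980), Cnnm2 (0.969) and Dpep1 (0.963), of which Dpep1 averaged 3.72, 7.33 and 4.45 RPKM in the order of the stages. Cd59a was closest to Jph1 (r = 0.986), Ociad2 (0.977) and Slc5a3 (0.976), C4b to Bnc2 (0.966), Cbarp (0.956) and Abhd4 (0.955), Cd55 to Egfr (0.961), Efcab14 (0.957) and Epyc (0.938), and C1ra, which hardly varied, to Aven (0.936), Tle6 (0.935) and Zbtb43 (0.932). Between Serping1 and C1ra themselves, r was 0.00, and C1ra had little change to share. Between Serping1 and C1s1 it was 0.83. With the rest of the 7 genes, Serping1 had an r of 0.83 (Cd59a), 0.77 (C3), 0.03 (Cd55), −0.14 (Cfb) and −0.78 (C4b). With the macrophage markers Csf1r and Adgre1 it was 0.84 and 0.65.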

How the data were processed

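RNA-seq of 9 libraries, 3 per stage, was analysed. According to the study's methods and the labels' processing notes, the authors aligned reads with STAR 2.0.4b to the GRCm38 assembly of Ensembl, used featureCounts to count the reads that aligned once and to 1 gene only, and deposited the values as CPM and as RPKM, with day 0 and day 7 in 1 pair of tables and day 4 in another. Whether counting used strand is not given in the sources used here. Repeated lines of a gene were used once, and 40526 genes lay in both tables. Whole reads were recovered from the CPM (of values up to 2000 reads, 100% lay within 0.01 of a whole read), for count models only.

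limma 3.58.1 in R 4.3.3 (lmFit, eBayes with a trend) was applied to log2(CPM + 0.5) of the day 0 and day 7 libraries, without a replicate term, and tested on simulated data. The variance prior weighed 42.9 degrees of freedom and the residuals 4, so that the spread of a single gene counted little. Alternatives were pseudocounts of 0.1 and 1, filters at any reads and at 5 CPM, the RPKM table, median-of-ratios and TMM scaling, robust variances, no trend, edgeR 4.0.16, DESeq2 1.42.0, voomWithQualityWeights (the function the methods name), the replicate number as a block, and leaving out each library. The study calls the libraries biological replicates, but no label ties them to animals. Positions, overlaps and transcripts come from GENCODE M21 (GRCm38).

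The 7 genes and the lists were chosen with earlier results of these data known. Named genes are the 7, their paralogs, complement genes past the threshold or with at least 10 RPKM at a stage, and the 3 most alike in pattern. Other named genes, and the ratios, were chosen after their values were seen. Of the planned list, 1 complement gene is not reported here.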

Additional observations from a re-analysis of the deposited data

How the results depend on the processing

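Serping1 and Cd59a were higher at day 7 in every alternative that tested them, and C1ra, Cd55 and C3 passed the threshold in none. With a filter of 5 CPM, 1 of the 7 genes was higher, since Cd59a was not tested, and 4 of the other complement genes were, against 7 with the filter of 1 CPM. Of all genes tested, 11.9% were higher with the filter of 5 CPM and 12.6% with that of 1 CPM. With any reads 1 of the 7 (C4b) and 3 of the other complement genes (Clu, Masp2 and Colec10) were lower, against 9.45% of all genes. The other complement genes called higher numbered 4 to 8 when single libraries were left out, and 11 each with median-of-ratios scaling, TMM scaling, edgeR and voomWithQualityWeights. Of all genes, 9.07% to 12.8% were higher when single libraries were left out. With the scalings and models just named, in that order, 22.4%, 22.2%, 22.2% and 24.8% were. C4b did not pass with DESeq2 among all genes with any reads (log2 fold change −1.83), and the cause was not tested. C8g, near 0, turned positive with median-of-ratios scaling (0.0035), TMM scaling (0.0014), edgeR (0.10), DESeq2 (0.047) and voomWithQualityWeights (0.14), and ranged from −0.20 to 0.057 when single libraries were left out. The means of 5 of the 7 genes were higher at day 4 than at day 0 (4 to 6 without single libraries), and those of 2 were higher at day 7 than at day 4 (2 to 3). The 5 include C1ra and Cd55, whose libraries overlapped between day 0 and day 4. The 2 are Cd59a, whose libraries overlapped between day 4 and day 7, and Cfb, which did not exceed the floor of 3 reads. The share of all genes with such means was not computed. Over all genes, calls numbered 3971 as deposited, of which 40.3% were higher, 5455 with median-of-ratios scaling (52.1% higher), 6120 with voomWithQualityWeights and 6330 (4699 lower) without day 0 replicate 3, which had the fewest reads, and the lower genes numbered 1521 without day 0 replicate 2 and 1554 without day 7 replicate 2. Same-numbered libraries of day 0 and day 7 did not deviate together (r from −0.44 to −0.02), and for unlike numbers r went from −0.27 to 0.36. Deviations from a mean of 3 libraries depend on each other, so these values cannot decide whether the numbers pair the libraries. With the replicate block 2 of the 7 genes were higher and 0 lower, 7 other complement genes were higher and 1 lower, and of all genes 3413 were called. Depth limits C4b, Cfb and, at day 0, C3, which rest on 20 reads or fewer in each day 0 library.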
